A study of Mus musculus with 8 samples.

Results

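The coding peaks described here lay in long exons, away from the stop codon. A peak summit belonged to the group when it fell in the coding sequence of the longest-coding complete transcript of exactly 1 gene, more than 200 nt upstream of the stop codon, in an exon of 400 nt or longer. Peak intervals of the 4 lists that overlapped by at least 1 bp were joined, which gave 4229 long-exon coding regions of 11361 regions in all, in 2789 genes. The rule used position alone, so no region was taken for its height, its motif or its difference between shRNAs. It applied to called peaks only, and members and lists were chosen with earlier results of these data known. The exon length includes any untranslated part of the exon.

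Primary mouse vascular smooth muscle cells (VSMCs) were compared after lentiviral expression of a control shRNA (shCTR), which the study describes as directed against a plant microRNA sequence, or of an shRNA against Mettl14 (shMettl14). Mettl14 encodes the partner of Mettl3 in the methyltransferase that places N6-methyladenosine (m6A) on RNA. For m6A-RIP-seq, fragmented total RNA was precipitated with an anti-m6A antibody, and each of the 4 precipitates (IP; replicates A and B of each shRNA) was set against its own input library, 8 samples in all, with 1 deposited peak list for each IP. The labels name neither separate cultures nor animals behind A and B, so every p-value measures the spread between these samples, which may be technical, and bulk RNA cannot tell fewer modified cells from less modification per cell.

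The m6A methyltransferase acts on an adenosine inside a short consensus, DRACH (D for A, G or T, R for A or G, H for A, C or T). Sites on mRNA are known to gather around stop codons and in unusually long internal exons, and YTH-domain proteins that bind them take part in mRNA decay and translation. In VSMCs, which shift between contractile and proliferating states, the transcripts that carry the mark are of interest because the mark can set how long a transcript lasts.

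The 2 shCTR lists numbered 11158 (A) and 8655 (B) summits and the 2 shMettl14 lists 13675 (A) and 9256 (B). Mettl14 itself carried no exonic summit in any of them, so they give no check of the knockdown. Of 8 VSMC marker genes, only Lmod1 and Myh10 had an exonic summit in all 4 lists and 5 had none in any, among them Acta2 and Tagln. Of 4 endothelial markers, Pecam1 and Cdh5 had exonic summits in all 4 lists. None of the 4 leukocyte or 3 neuronal markers had any. A gene without a peak may still be expressed, so these counts neither show nor exclude a cell type, and the part of endothelial transcripts in the results was not tested.

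The windows below, of 101 nt each, show what such sites look like. They were read along the transcript in GENCODE M21 and equal the GRCm38 genome. Each is centred on the median summit of the region over the lists. All copies of GGACT are in capitals, or, where the window has none, the DRACH pentamer nearest to the summit. Elk4 and Elmsan1 are among the most enriched regions, and Fat1, Synpo2 and Ahnak stand for a cadherin, a smooth muscle protein and the gene with the most peaks. Rad54l2 and Tor4a are among the regions whose rank differed most clearly between the shRNAs, neither of which passed the test (limma, adjusted p = 0.796 for each), and Mapk7 and Usf3 are among those found in the lists of shCTR alone and of shMettl14 alone, which were not tested one by one.
Elk4 (chr1:132018279-132018379, plus strand): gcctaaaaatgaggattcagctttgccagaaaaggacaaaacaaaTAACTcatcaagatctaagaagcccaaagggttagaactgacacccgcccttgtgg
Elmsan1 (chr12:84172860-84172960, minus strand): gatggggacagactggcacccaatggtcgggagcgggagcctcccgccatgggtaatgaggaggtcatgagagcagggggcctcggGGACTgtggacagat
Fat1 (chr8:45050913-45051013, plus strand): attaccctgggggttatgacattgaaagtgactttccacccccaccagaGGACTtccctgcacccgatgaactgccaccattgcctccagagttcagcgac
Synpo2 (chr3:123114218-123114318, minus strand): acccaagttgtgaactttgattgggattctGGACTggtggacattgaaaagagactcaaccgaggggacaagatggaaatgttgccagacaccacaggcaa
Ahnak (chr19:9016967-9017067, plus strand): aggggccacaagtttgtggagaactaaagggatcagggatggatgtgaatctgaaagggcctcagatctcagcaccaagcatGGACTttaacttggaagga
Rad54l2 (chr9:106693318-106693418, minus strand): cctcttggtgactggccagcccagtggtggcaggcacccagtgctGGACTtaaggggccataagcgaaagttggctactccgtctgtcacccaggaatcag
Tor4a (chr2:25195646-25195746, minus strand): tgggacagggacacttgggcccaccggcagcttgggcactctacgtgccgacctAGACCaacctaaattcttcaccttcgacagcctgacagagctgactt
Mapk7 (chr11:61491005-61491105, minus strand): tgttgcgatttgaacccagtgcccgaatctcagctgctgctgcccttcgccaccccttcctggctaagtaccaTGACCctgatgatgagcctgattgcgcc
Usf3 (chr16:44218106-44218206, plus strand): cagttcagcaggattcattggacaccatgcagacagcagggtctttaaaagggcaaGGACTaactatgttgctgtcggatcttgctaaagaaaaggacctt
In Fat1 the adenosine of GGACT lay 1 nt downstream of the median summit, in Rad54l2 it lay 3 nt upstream, in Usf3 8 nt downstream and in Synpo2 18 nt upstream, whereas in Elmsan1 and Ahnak it lay 38 and 34 nt downstream. Elk4, Tor4a and Mapk7 had no GGACT in the window.

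To determine where coding peaks away from the stop codon lay, summits in long exons were counted beside those in exons under 400 nt. shCTR A had 4575 long-exon coding summits and 130 short-exon ones. shCTR B had 3756 and 76, shMettl14 A had 5732 and 204, and shMettl14 B had 3922 and 98. Nearly all coding summits away from the stop codon were thus in long exons, from 96.6% in shMettl14 A to 98.0% in shCTR B. The long-exon coding summits made up 51.6% and 53.2% of the exonic summits of single genes in the shCTR lists and 52.0% and 51.7% in the shMettl14 lists. Averaged over replicates, shCTR had 52.4% ± 1.12 and shMettl14 51.9% ± 0.255 (SD, n = 2 each), and the difference was -0.531 points, smaller than the SD of the shCTR lists but larger than that of the shMettl14 lists (exact permutation test, two-sided, p = 1, where 2 lists against 2 cannot go below 0.333). Without shCTR B the difference was 0.263 points, in the other direction.

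The available sequence was then taken into account. Genes with a summit within 200 nt of the stop codon, whose RNA thus gave peaks in that list, numbered 1780 to 2254. Their long exons held 42.2% to 44.7% of the coding sequence away from the stop codon, but 96.5% to 97.3% of the coding summits there. In shCTR A this was 1630 summits in long exons against 45 in short ones, or 0.997 against 0.0206 summits per kb. The ratio of these densities was 48.4 and 47.3 for shCTR (A, B) and 34.4 and 43.0 for shMettl14 (A, B). The gap between the share of summits and the share of sequence was 53.6 points ± 1.43 (SD, n = 4 lists) and above 0 in 4 of 4 lists (exact sign-flip permutation test, two-sided, with the smallest p that 4 lists allow, 1 in 8).

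Internal exons, which have a junction on both sides, showed the same order. In genes with a stop-codon summit, 1.64% ± 0.386 (SD, n = 4 lists) of the internal coding exons of 200 to 399 nt held a coding summit. This was 42.1% ± 3.60 of those of 400 to 799 nt, 70.0% ± 3.70 of those of 800 to 1599 nt, 82.8% ± 4.12 of those of 1600 to 3199 nt and 96.4% ± 2.45 of longer ones. The lowest list of each class lay above the highest list of the class before it. Per kb of eligible sequence, the classes from 400 nt upwards had 0.981 ± 0.177, 1.22 ± 0.241, 1.13 ± 0.180 and 1.07 ± 0.192 summits (SD, n = 4 lists), against 0.0761 ± 0.0224 for 200 to 399 nt. Exons of 400 to 799 nt lay below those of 800 to 1599 nt in each of the 4 lists. Over all exons, first and last ones included, the same classes from 400 nt upwards had 0.714 ± 0.131, 0.956 ± 0.182, 1.11 ± 0.229 and 1.08 ± 0.245 summits per kb.

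The length of 400 nt in the rule was not a step in the data. In bins of 100 nt, the share of internal exons with a coding summit was 0.905% for 200 to 299 nt, 6.34% for 300 to 399 nt, 19.7% for 400 to 499 nt, 53.2% for 500 to 599 nt and 54.4% for 600 to 699 nt. Just outside the rule, exons of 300 to 399 nt held 42 to 89 coding summits in a list, and just inside it, exons of 400 to 499 nt held 99 to 155. Their median pileups were 14 to 20 fragments outside and 14 to 17 inside.

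**Figure D1:**
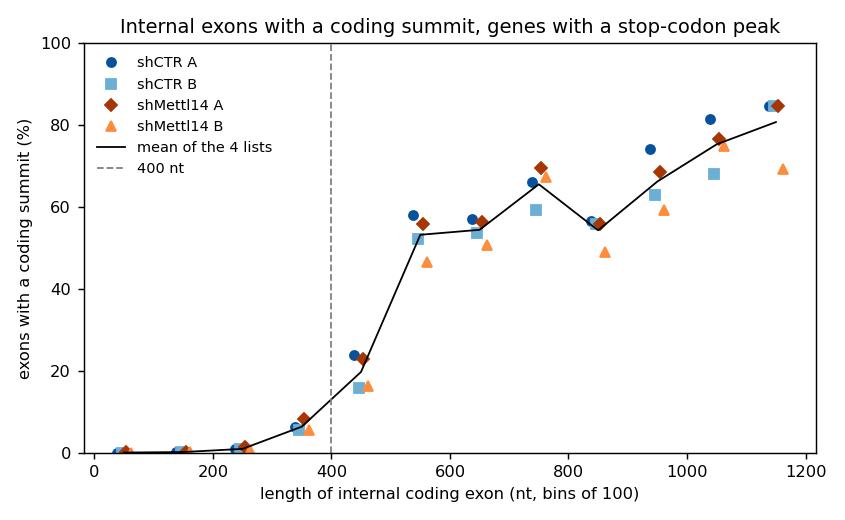
Percent of internal coding exons with a coding summit away from the stop codon (y axis) against exon length in bins of 100 nt (x axis), in genes with a summit within 200 nt of the stop codon; symbols are the 4 lists, the line is their mean and the dashed line marks 400 nt. The share rises from 0.905% at 200 to 299 nt to 53.2% at 500 to 599 nt, with the 4 lists close to each other.

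Density did not fall steadily with distance from the stop codon. In the same genes, long exons held 1.11 ± 0.392 summits per kb (SD, n = 4 lists) at 200 to 400 nt upstream of the stop codon, 1.03 ± 0.202 at 400 to 800 nt, 0.938 ± 0.193 at 800 to 1600 nt, 0.880 ± 0.152 at 1600 to 3200 nt and 1.03 ± 0.138 at 3200 to 6400 nt. Beyond 6400 nt, the density was 1.32 ± 0.238, and it was above the density at 1600 to 3200 nt in 4 of 4 lists. Long internal exons held 1.10 ± 0.198 summits per kb, last exons 1.03 ± 0.256, exons of single-exon genes 0.990 ± 0.182 and first exons 0.512 ± 0.0589, so that the highest of the 4 lists for first exons, 0.583, lay below the lowest for internal exons, 0.916.

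Of the 4229 regions, 2214 lay in internal exons, 1561 in last exons, 283 in first exons and 171 in single-exon genes. Their exons had a median length of 1801 nt and ranged from 402 to 40044 nt. The median distance upstream of the stop codon was 1172 nt. Of the 2789 genes, 1225 also had a summit within 200 nt of the stop codon in at least 1 list, and in 1264 every exonic summit was a long-exon coding summit.

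Summits in internal exons kept clear of the junctions. In shCTR A, 98.0% of 2496 such summits lay at least 100 nt from the nearer junction, against 84.8% of all eligible positions of the same exons. The values were 97.6% against 85.2% in shCTR B, 94.0% against 84.6% in shMettl14 A and 96.8% against 85.4% in shMettl14 B. The mean excess was 11.6 points ± 1.64 (SD, n = 4 lists), above 0 in 4 of 4 lists (exact sign-flip permutation test, two-sided, p at its smallest, 1 in 8). The 2 ends of an exon differed: 1.44%, 2.01%, 2.11% and 1.12% of the summits, in the order shCTR A, shCTR B, shMettl14 A and shMettl14 B, lay within 100 nt of the 5′ end, and 0.561%, 0.392%, 3.90% and 2.06% within 100 nt of the 3′ end.

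The shCTR and shMettl14 lists did not overlap in the share at least 100 nt from a junction, 97.8% ± 0.283 against 95.4% ± 2.0 (SD, n = 2 each; exact permutation test, two-sided, p = 0.333, the smallest possible). The shortest interval in a list was 141 bp (A) and 170 bp (B) for shCTR and 97 bp (A) and 112 bp (B) for shMettl14. The median interval with a long-exon coding summit was 423 and 421 bp for shCTR and 432.5 and 332 bp for shMettl14. Peaks were called along the genome, where a fragment that spans a junction is split, and the part of this and of interval length in the distances from junctions and in the count of short-exon summits was not tested.

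**Figure D2:**
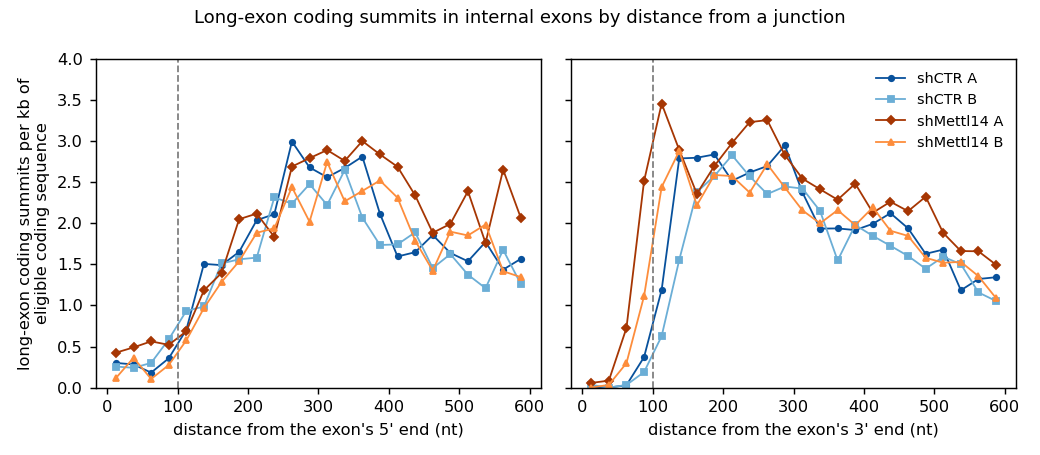
Long-exon coding summits in internal exons per kb of eligible coding sequence (y axis) by distance in nt from the exon's 5′ end (left) and 3′ end (right), in bins of 25 nt, one line per list; the dashed lines mark 100 nt. All 4 lists are low next to both junctions, and on the 3′ side the shMettl14 lists climb closer to the junction than the shCTR lists.

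Peak height was compared as the percentile of the fold enrichment within a list. The median percentile of long-exon coding summits was 51.2, 51.5, 50.4 and 50.5 in shCTR A, shCTR B, shMettl14 A and shMettl14 B. Short-exon coding summits had 44.3, 40.7, 34.0 and 41.6. Summits within 200 nt of the stop codon had 57.3, 58.1, 57.8 and 58.7. Long-exon coding summits were thus 10.8 points ± 4.09 (SD, n = 4 lists) above short-exon ones and differed from those at the stop codon by -7.09 points ± 0.946, each with the same sign in 4 of 4 lists (exact sign-flip permutation tests, two-sided, each with the smallest p that 4 lists allow, 1 in 8). The distance from short-exon summits depended on the measure and on the exon length that separates the classes. Ranked by −log10 p the mean difference was 3.92 points. Ranked by the fragment pileup in the IP, recovered from the fold enrichment and the p-value of each peak, it was -3.45 points, in the opposite direction. With long exons taken from 300 nt it was 20.8 points and with long exons taken from 600 nt 2.12 points.

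Long-exon coding summits had a median pileup of 18 fragments in either shCTR list, and of 16 (A) and 14 (B) after shMettl14, and the highest in any list was 184. Between 19.6% and 30.8% of these summits rested on 10 fragments or fewer, against 27.5% to 36.1% of all summits. The median percentile was 54.5 to 56.0 in exons of 400 to 799 nt and 48.2 to 49.1 in exons of 3200 nt and longer.

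The consensus was next examined. A DRACH pentamer lay within 50 nt of 94.0% to 95.3% of the long-exon coding summits, but 88.3% of the positions of the same exons have one too, and 84.6% of the eligible positions of all long coding exons. GGACT, the DRACH pentamer with the highest ratio to those positions, lay within 50 nt of 18.9%, 20.8%, 16.9% and 19.4% of the summits in shCTR A, shCTR B, shMettl14 A and shMettl14 B, against 11.0%, 11.2%, 11.0% and 11.2% of the positions of the same exons, read on the transcript strand. The excess was 7.90 points ± 1.58 (SD, n = 4 lists), above 0 in 4 of 4 lists (exact sign-flip permutation test, two-sided, p at its smallest, 1 in 8). GGACA came next, near 24.3% of summits on average and 1.58 times the share of positions. GAACT was near 16.9% of summits, 1.55 times the share of positions. The lowest ratio was that of AAACC, at 0.907 times. Summits within 100 nt can share a pentamer, so the counts are not independent.

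GGACT was less frequent at long-exon coding summits than at stop-codon summits in 4 of 4 lists, with a difference of -4.86 points ± 0.648 (SD; exact sign-flip permutation test, two-sided, p at its smallest, 1 in 8). The comparison with short-exon summits had no settled direction: the difference was -1.13 points ± 2.93, above 0 in 2 of 4 lists (exact sign-flip permutation test, two-sided, p = 0.5). The share with GGACT was 19.9% ± 1.37 in shCTR and 18.1% ± 1.79 in shMettl14 (SD, n = 2 each), a difference of -1.74 points that lay within the spread between replicates (exact permutation test, two-sided, p = 0.667). It was -2.71 points without shCTR A, -0.770 without shCTR B, -0.474 without shMettl14 A and -3.01 without shMettl14 B. Measured from interval midpoints, the difference turned to 0.829 points.

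**Figure D3:**
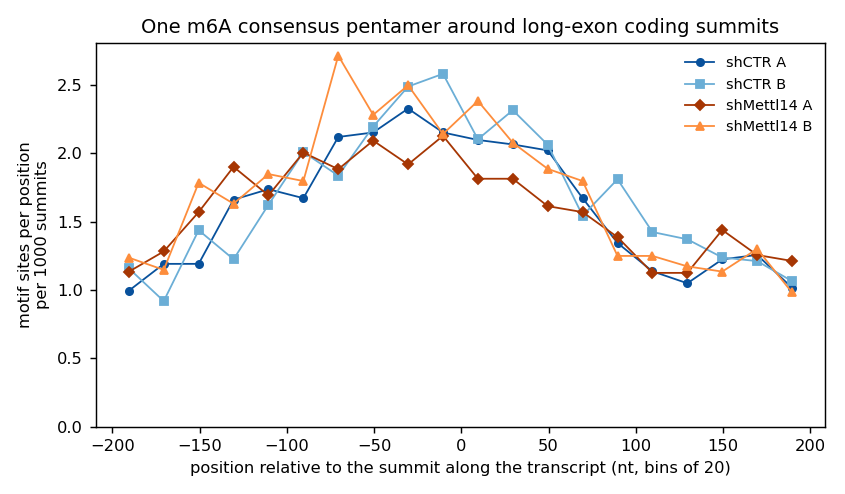
Copies of GGACT per transcript position per 1000 long-exon coding summits (y axis) by position relative to the summit in bins of 20 nt (x axis, 5′ to the left), one line per list. In shCTR A the value is 2.33 in the second bin upstream of the summit and 0.995 and 1.02 in the outermost bins, and the 4 lists run close together.

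The codon positions of the copies near a summit were close to those of all copies. The adenosine of GGACT was the middle base of a codon (GAC, aspartate) in 53.8%, 52.4%, 51.9% and 53.4% of the copies within 50 nt of a long-exon coding summit, against 51.5%, 51.5%, 52.0% and 51.7% of all copies in the same exons. It was the first base (ACT, threonine) in 22.8% to 25.1% near summits and 25.2% to 26.1% of all copies, and the third base (GGA, glycine) in 22.4% to 23.4% and 22.5% to 23.1%. Of all copies in these exons, 23.9% to 27.1% lay within 50 nt of a summit.

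The genes with most regions present in all 4 lists encode very large proteins. The rule itself gives genes with more long-exon coding sequence more room for regions. Ahnak (chr19, plus strand), a scaffold protein of the cell cortex, had 11 regions, all within its last exon of 17498 nt. Fat1 and Fat4, giant cadherins of cell polarity and growth control, had 9 and 8 regions in all 4 lists, out of 9 and 13. Kmt2d, a histone H3 lysine 4 methyltransferase, had 7 of 8 and Macf1, a linker of microtubules and actin, also 7 of 8. Bod1l, which protects stalled replication forks, had 6 of 8, Zfhx3, a homeodomain and zinc finger factor, 6 of 7, and Peak1, a pseudokinase of the cytoskeleton, 6 of 7. The mean percentile of these regions ran from 43.3 in Ahnak to 74.0 in Bod1l, and the smallest adjusted p over all their regions was 0.985 in limma's test of the shRNA effect given below.

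In Ahnak the 11 regions held 38, 36, 52 and 41 summits in shCTR A, shCTR B, shMettl14 A and shMettl14 B. The highest summit lay 1295 to 1313 nt upstream of the stop codon in every list, where the pileup was 184, 163, 122 and 136 fragments, the highest of all long-exon coding regions summed over the lists. The shMettl14 pileups were below both shCTR ones, but its percentiles were 73.4 and 84.7 in shCTR and 77.6 and 93.4 in shMettl14, which overlap. Fam43a and Sec62, a subunit of the protein translocation machinery of the endoplasmic reticulum, came next in summed pileup. Fam43a had 126, 147, 98 and 110 fragments and Sec62 134, 148, 95 and 97.

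**Figure D4:**
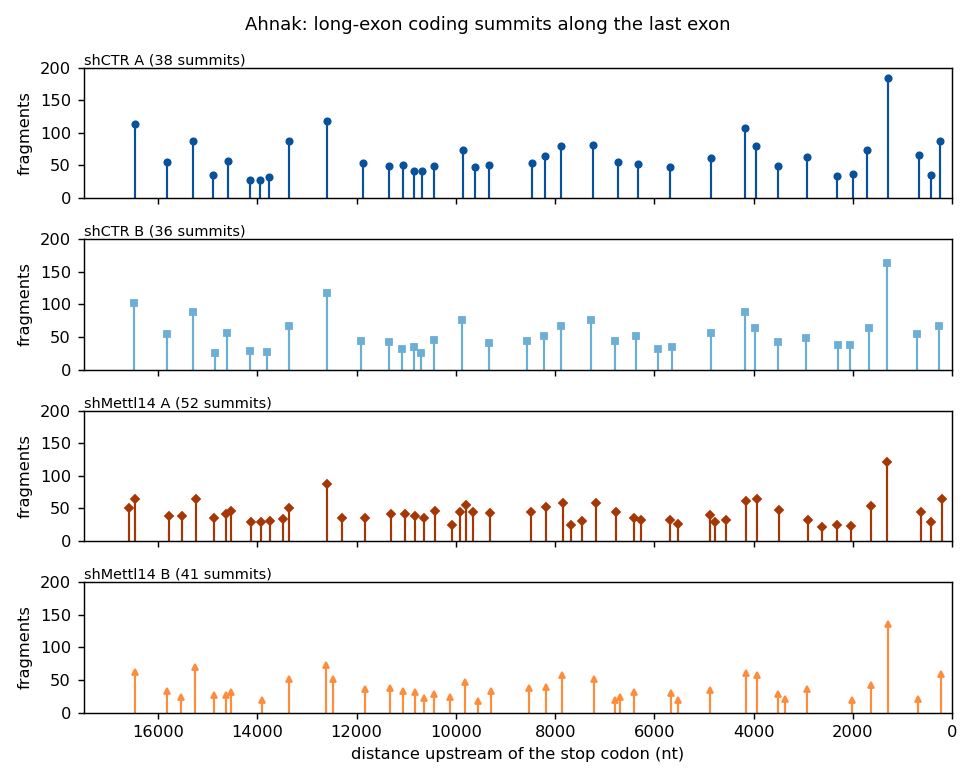
Fragments in the recovered pileup (y axis) at each long-exon coding summit of the last exon of Ahnak by distance upstream of the stop codon in nt (x axis), one panel per list. The highest summit sits 1295 to 1313 nt from the stop codon in all 4 lists, with 184, 163, 122 and 136 fragments.

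The most enriched regions stood at the top of every list. Usp35, a deubiquitinase, had fold enrichments of 58.6, 44.5, 30.3 and 54.9 in shCTR A, shCTR B, shMettl14 A and shMettl14 B in its exon 10 of 11 (1273 nt), at percentiles of 99.9 or above in every list. Elk4, an ETS factor that works with serum response factor, had 39.9, 34.6, 28.8 and 33.6. Elmsan1, a subunit of a histone deacetylase complex, had 30.9, 42.8, 26.4 and 28.6. Arhgap29, a GTPase-activating protein, had 29.5, 32.8, 27.2 and 25.3. For Elk4, Elmsan1 and Arhgap29 both shMettl14 fold enrichments were below both shCTR ones, and for Usp35 they overlapped. As percentiles within the lists, those of Arhgap29 overlapped too. How many of all regions separate in this way was not counted, so the separation is no result about these genes. None of these 4 passed limma's test.

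In Gmeb2, Ier5l and Sema4c, also among the 8 regions with the highest mean percentile, the strongest summit was not a long-exon coding summit in any list but a neighbouring one in the same interval. Their long-exon coding summits were lower. That of Gmeb2 was present in shMettl14 A only, at a percentile of 41.7. In Sema4c, a semaphorin, it was at 40.5, 56.2, 74.8 and 61.0 and in Ier5l at 78.3, 95.4, 92.6 and 95.2. Over all 4229 regions, the strongest summit was a long-exon coding summit in every list with a peak in 3611, or 85.4%.

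To compare the shRNAs region by region, the fold enrichments of the regions present in all 4 lists were turned into normal scores of their ranks within each list and fitted with limma. This took in 2478 of the 4229 long-exon coding regions, since the others lacked a peak in at least 1 list and were not tested. No region passed an adjusted p of 0.05, among these 2478 or among all 4929 regions tested (0% called), with 0.796 as the lowest adjusted value. At p under 0.05 before adjustment, 55 long-exon coding regions were higher in shMettl14 (2.22%, background 2.41%) and 53 lower (2.14%, background 2.52%). The median score difference was 0.0094 for them and 0.0021 for all regions, and 1259 were higher and 1219 lower. Fisher's exact test on the pileups pooled over replicates, at p under 0.05 and a log2 ratio beyond 1, called 13 of the 2478 long-exon coding regions (0.525%, background 0.446%). All 13 were higher in shMettl14 (background 0.385% in that direction), and none passed after adjustment (background 0%). That test leaves out the spread between replicates.

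The regions with the smallest unadjusted p are given as values, since none passed. In Tor4a, an AAA ATPase of the torsin family, the percentile was 89.4 and 90.6 in shCTR and 40.3 and 16.0 in shMettl14, from 33, 31, 21 and 9 fragments, with a score difference of -2.06 ± 0.50 (SE; limma adjusted p = 0.796). In Gcc2, a golgin, it was 80.9 and 66.0 against 8.49 and 12.4 (score difference -1.92). In Polr3e, a subunit of RNA polymerase III, it was 62.0 and 65.6 against 5.97 and 12.2. In Dcaf5, a substrate receptor of a ubiquitin ligase, it was 77.9 and 78.2 against 20.6 and 25.8. In all 4 both shMettl14 lists lay below both shCTR lists, which follows from their choice by the smallest p in this direction. So did their fragment counts, as did the median pileup of all long-exon coding summits (18 in either shCTR list, 16 and 14 in shMettl14 A and B).

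On the other side, Pcmtd1, a protein related to isoaspartate methyltransferases, was at 11.6 and 8.02 in shCTR and 67.3 and 65.4 in shMettl14 (score difference 1.75 ± 0.49, SE; limma adjusted p = 0.796), from 17, 13, 19 and 17 fragments. Kif26a, an atypical kinesin, was at 13.3 and 11.5 against 81.1 and 57.1, from 5, 5, 12 and 9 fragments. Rad54l2, a chromatin remodelling ATPase, was at 50.5 and 36.8 against 93.7 and 85.2. Cavin1, a coat protein of caveolae, was at 2.94 and 0.237 against 22.8 and 12.1, and its strongest summit was a long-exon coding one in 2 of the 4 lists. The fragment counts in Pcmtd1 and Cavin1 overlapped between the shRNAs.

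**Figure D5:**
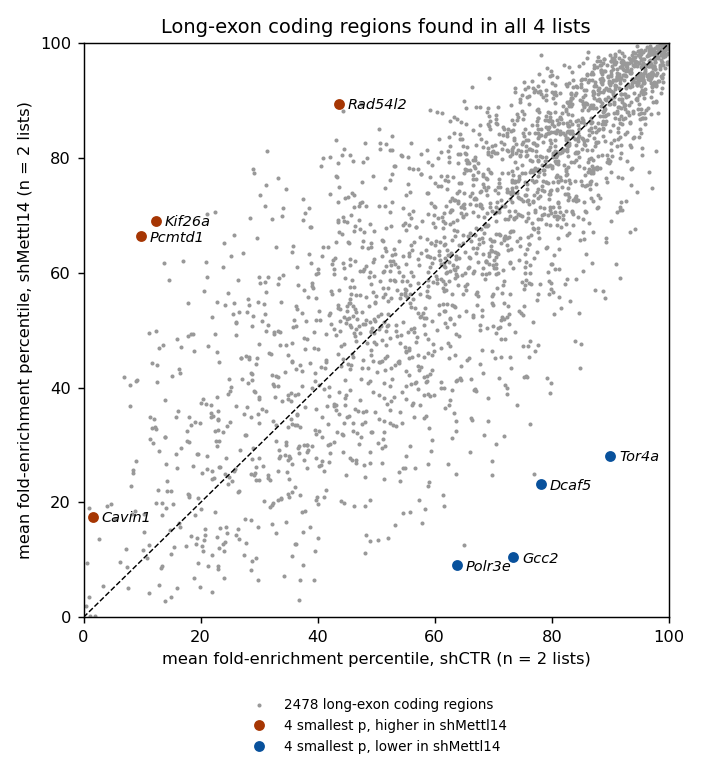
Mean fold-enrichment percentile in the 2 shMettl14 lists (y axis) against that in the 2 shCTR lists (x axis) for the 2478 long-exon coding regions found in all 4 lists; coloured points are the 4 regions with the smallest p in each direction and the dashed line is equality. The points spread on both sides of the line, 1259 with a higher and 1219 with a lower score in shMettl14, and none passed an adjusted p of 0.05.

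Presence and absence of peaks gave close counts in both directions. A peak in both shCTR lists and in neither shMettl14 list was found for 60 long-exon coding regions (1.42%, background 1.71%), and the reverse for 61 (1.44%, background 1.79%). The largest part of the regions, 2478 or 58.6%, had a peak in all 4 lists, against 43.4% of all regions, and 739 had one in a single list. The A lists were longer than the B lists, and 220 long-exon coding regions had peaks in both A lists and neither B list (5.20%, background 6.79%), against 49 in both B lists only (1.16%, background 1.21%). When every list was reduced to the same number of top peaks, control-only regions numbered 132 (3.59%, background 3.64%) and knockdown-only regions 34 (0.925%, background 1.03%). The median pileup per list was 11 fragments in control-only and 7 in knockdown-only regions, against 21 in those in all 4 lists.

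Among the control-only regions, 6030458C11Rik, an unnamed gene, had 15 and 14 fragments in shCTR A and B, Mapk7, a mitogen-activated protein kinase, 16 and 12, and Zfp26, a zinc finger protein, 13 and 11, although its strongest summit in shCTR A was a neighbouring one near the stop codon and its long-exon coding summit was in shCTR B alone. Among the knockdown-only regions, Usf3, a helix-loop-helix protein, had 16 fragments in both shMettl14 lists, Aar2, a spliceosome assembly factor, 14 and 12, and Virma, a subunit of the m6A methyltransferase complex, 16 and 9. The percentiles of Mapk7 were 70.6 and 48.0 and those of Usf3 78.0 and 74.8.

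Gene groups were described by the share of their genes that carried a long-exon coding region. Of the 12797 genes with a long coding exon, 2789 or 21.8% had one, and of the 2293 that also had a stop-codon summit in some list, 53.4% did. Chromatin regulators had one in 43 of 51 genes (84.3%) and in 26 of 30 with a stop-codon summit (86.7%), with 112 regions in all. The strongest were Nsd1, a histone H3 lysine 36 methyltransferase, at percentiles of 99.8, 98.7, 99.2 and 98.8, and Crebbp, a histone acetyltransferase, at 98.4, 97.3, 98.2 and 98.2. Giant cytoskeletal and scaffold proteins had one in 24 of 29 genes (82.8%) and in 10 of 10 with a stop-codon summit. They were led by Akap10, an anchor of protein kinase A, at 97.8, 96.5, 91.0 and 92.5 and by Nes, the intermediate filament protein nestin, at 88.5, 92.6, 89.6 and 90.1. In Akap10 both shMettl14 percentiles lay below both shCTR ones, but the region did not pass limma's test (adjusted p = 0.999). In Nes the shMettl14 percentiles fell between the shCTR values.

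Zinc finger genes were the largest group by number, with 398 regions in 237 of 379 genes (62.5%), and 8 of them were control-only (2.01%, background 1.71%) and 10 knockdown-only (2.51%, background 1.79%). Of the zinc finger genes with a stop-codon summit, 115 of 144 (79.9%) had one, against 53.4% of all such genes. Their leading regions, in Zfp703 and Zfp503, owed their rank to a neighbouring summit, and the long-exon coding summits themselves were at 95.3 in shCTR A, 91.7 in shMettl14 A and 86.4 in shMettl14 B in Zfp703 and at 17.2 in shCTR A and 7.62 in shMettl14 A in Zfp503. The cadherin superfamily had 109 regions in 43 of 79 genes (54.4%). Of these regions, 5 were control-only (4.59%, background 1.71%) and 2 knockdown-only (1.83%, background 1.79%). Of the cadherin genes with a stop-codon summit, 5 of 5 had a region. The last-exon region of Fat1 was at 98.6, 97.4, 97.8 and 99.3, and Pcdhga5, a clustered protocadherin, at 96.2, 88.2, 97.0 and 92.1. Genes of protocadherin clusters share their 3′ exons and parts of their sequence, so the gene that gave these reads is less certain.

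Growth factor and insulin signalling genes had 19 regions in 13 of 18 genes (72.2%), with Igf1r, the receptor of insulin-like growth factor 1, and Frs2, a docking protein of growth factor receptors, in the lead. Of those with a stop-codon summit, 7 of 11 (63.6%) had one, against 53.4% of all such genes. In Igf1r the strongest summit was again a neighbouring one, and the long-exon coding summit was at 12.6 in shMettl14 A and 12.2 in shMettl14 B and absent from the shCTR lists. In Frs2 it was at 88.0, 96.5, 83.1 and 94.7. Immediate early, KLF, Fox and Sox factors had 38 regions in 31 of 86 genes (36.0%), and both leading genes, Jun and Jund, subunits of the AP-1 factor, owed their rank to neighbouring summits. Of the factors with a stop-codon summit, 22 of 38 (57.9%) had a region, near the 53.4% of all such genes. Extracellular matrix genes had 27 regions in 20 of 53 genes (37.7%), and of those with a stop-codon summit 10 of 18 (55.6%) had one. The list was drawn up by symbol, and its leading genes, Mfap3l at 98.7, 96.4, 98.0 and 99.3 and Mfap3 at 97.8, 93.3, 93.5 and 80.4, encode cell surface proteins and no fibrous collagen.

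Smooth muscle regulators and contractile genes had 6 regions in 4 of 10 genes (40%). Of those with a stop-codon summit, 3 of 4 (75%) had one. Synpo2, an actin-binding protein of Z-discs and dense bodies, was at 98.5, 83.0, 99.1 and 96.5 from 39, 22, 37 and 29 fragments. Lmod1, a nucleator of actin filaments in smooth muscle, was at 98.1, 86.0, 94.3 and 98.3 from 59, 46, 47 and 40 fragments. In both, the range of the shCTR lists overlapped that of the shMettl14 lists. In each group, no region passed limma's adjusted p of 0.05. At an unadjusted p under 0.05, 4 of 185 ranked zinc finger regions were higher in shMettl14 (2.16%, background 2.41%) and 9 lower (4.86%, background 2.52%), and in each of the other groups there were at most 3 in all. The median score difference ran from -0.06 in zinc finger genes to 0.28 in smooth muscle genes (5 regions), beside 0.0094 for all long-exon coding regions.

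Of 9 genes that the study discussed, 5 have a long coding exon and 3 carried 4 long-exon coding regions. The study chose them on these samples, so they are not independent evidence. Klf4, a factor of the VSMC phenotypic switch, was at percentiles of 54.2 and 64.8 in shCTR and 58.7 and 44.5 in shMettl14, with 38, 33, 30 and 20 fragments (limma adjusted p = 1.0). Fbln2, a matrix glycoprotein, was at 16.3 and 28.5 against 18.8 and 17.8, with 96, 107, 74 and 53 fragments. Both had fewer fragments in both shMettl14 lists, as had the median long-exon coding summit. Col18a1, the collagen that yields endostatin, had a region in exon 2 with peaks in 3 lists, at 33.8 in shCTR B and 31.3 and 30.6 in shMettl14, and one in exon 1 with peaks in shCTR B and shMettl14 B.

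The m6A machinery itself was looked at after the values had been seen. Of 19 genes for subunits of the methyltransferase complex, demethylases and reader proteins, 18 have a long coding exon and 10 carried 16 long-exon coding regions. Among all genes with a long coding exon, 21.8% carried one, and 53.4% of those with a stop-codon summit did. Virma had 3 regions, of which the knockdown-only one is given above and the other 2 had a peak in all 4 lists. Zc3h13 had 3 regions, Rbm15 2, and Rbm15b, Wtap and Cbll1 1 each, all subunits of the complex. The readers Ythdf1, Ythdf2 and Ythdf3 had 1, 2 and 1 regions, each with a peak in all 4 lists, while Ythdc1 had 1 to 3 exonic summits in a list, none of which was a long-exon coding summit away from the stop codon, and Ythdc2 had none. Ythdf3 was at percentiles of 99.4, 91.5, 91.3 and 96.9, the highest of these genes in shCTR A. Mettl3, Mettl14 and the readers Igf2bp1, Igf2bp2 and Igf2bp3, each with a long coding exon, had no exonic summit in any list.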

How the data were processed

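The authors aligned the m6A-RIP-seq reads to the mouse genome mm10 (GRCm38) with STAR. SAMtools served to keep reads that mapped to a single place, and MACS2 to call the peaks, 1 list per IP with the matching input as control, whose versions and options are not given in the sources used here. The deposited list of each IP gives, per peak, the fold enrichment (a linear ratio to the local background), the −log10 p and q values and the summit offset. No read counts or library totals were used here, so sequencing depth is known only through the peaks. The smallest −log10 q was 2.01. The authors' pairwise replicate overlaps were not used.

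Summits were placed on 21515 coding transcripts of GENCODE M21. The IP pileup at each summit was recovered as the whole number of fragments that gives both the fold enrichment and the −log10 p (largest error 0.00015). Percentiles are ranks of fold enrichment within a list. For a region, the strongest summit in each list was used. The comparison of shRNAs used limma 3.58.1 in R 4.3.3, on normal scores of ranks over all regions in all 4 lists with Benjamini-Hochberg adjustment. Occupancy counts took exons with at least 50 eligible nt. Single values were compared by exact permutation tests over lists with scipy 1.17.1. Scripts were tested on simulated data. Motif shares of positions come from full enumeration of eligible positions.

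The genes named were the 8 with most regions in all 4 lists, the 8 regions of highest mean percentile, the 4 of smallest p in each direction, the 3 highest of each presence pattern, the leading 2 of each gene group, the study's genes and the 3 regions of most fragments; some of these items are not reported here. Members and lists were chosen with earlier results of these data known.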

Additional observations from a re-analysis of the deposited data

How the results depend on the processing

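Results were recomputed with other exon lengths, stop distances, summit positions, transcripts, peak filters, merging rules, motif windows and measures, and without each list. The alternatives for exon occupancy were chosen after seeing the data. Of 118 recomputed values, 110 kept their direction, 75 of them within 1.5 times the reported value, and 8 turned. The counts of regions among them cannot turn, so their direction was fixed in advance. Of the 8 that turned, 5 were of the GGACT difference from short-exon summits. Leaving out each list in turn gave -1.33 to 0.263 points for the difference in the share of exonic summits (0.263 without shCTR B), 103 to 166 regions at an unadjusted limma p under 0.05 against 108 (166 without shMettl14 B), 116 to 283 control-only regions against 60, and 128 to 399 knockdown-only regions against 61, where 1 list of a group then decides. These were 4.14% to 6.17%, 2.80% to 7.31% and 3.09% to 9.63% of the long-exon coding regions, beside 4.74% to 6.67%, 3.14% to 11.4% and 3.51% to 14.5% of all regions. Without 1 list, the lone list of a shRNA was assumed to vary like the others, and at most 1 region passed limma's adjusted p of 0.05. Equal numbers of top peaks gave 132 control-only (3.59%, background 3.64%) and 34 knockdown-only regions (0.925%, background 1.03%). Fisher's exact test on pileups called 13 of the 2478 long-exon coding regions and 22 of all 4929 (0.446%). The GGACT difference between shRNAs, -1.74 points, became 0.829 points with interval midpoints and -3.01 to -0.474 without 1 list. The GGACT difference from short-exon summits, -1.13 points, was 6.68 points with exons of 300 nt or longer, 0.416 at −log10 q of 5 or more, 0.545 with equal numbers of top peaks, 0.953 within 25 nt and 1.98 for DRACH, but -6.38 with exons of 600 nt or longer, -7.09 with midpoints and -8.99 within 100 nt. The percentile difference from short-exon summits, 10.8 points, was -3.45 by pileup, 3.92 by −log10 p, 20.8 with exons of 300 nt or longer and 2.12 with 600 nt or longer. The excess over eligible positions at junctions was 13.3 points with midpoints and 6.52 at 50 nt. The occupancy difference between exons of 400 to 799 and 200 to 399 nt was 21.6 points over all exons, 19.4 at −log10 q of 5 or more, 18.8 with equal numbers of top peaks and 40.5 over internal exons only. The cause of these changes was not tested. With the replicate letter as a replicate block, 124 long-exon coding regions had an unadjusted limma p under 0.05 (5.0%, background 5.92%) and none passed adjustment. The A minus B differences of the 2 shRNAs correlated at 0.0795 across 4929 regions, so the letters were not taken as pairs. Pileups of 10 fragments or fewer, in 19.6% to 30.8% of long-exon coding summits, limit what absence of a peak can show.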
